A study of Homo sapiens with 9 samples.

Results

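Heterotrimeric G proteins carry signals from cell-surface receptors into the cell, and the genes described here encode those proteins and the proteins that act directly on them. Members were the genes whose symbol in the array's probe annotation belongs to the RGS, GNA, GNB, GNG, GRK, GPSM, RIC8 or ADCY families. The rule uses names alone, but it was chosen with earlier results of these data known. The rule gave 48 genes, measured by 50 probesets, out of 14884 genes tested. They comprised 2 alpha subunits (GNAS and GNA12), 20 RGS proteins, 5 receptor kinases (GRK), 5 genes of the GPSM and RIC8 families, 10 adenylyl cyclases (ADCY) and 6 others. The others were the RGS partner genes RGS7BP and RGS9BP, the non-coding GNAO1-DT, GNAS-AS1 and GNG12-AS1, and the pseudogene ADCY10P1. Of 79 protein-coding RefSeq genes that match the rule, 44 were measured, so the classes are incomplete. Protein-coding genes of beta and gamma subunits were not among the named probesets and are not analysed here. The same holds for other genes, among them the alpha subunits GNAI1, GNAI2, GNAI3, GNAQ, GNA11 and GNA13, and RGS2.

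SMS-KCNR is an established human neuroblastoma line, derived from a tumour of the sympathetic nervous lineage. Its cells were exposed for 30 hours to 5 µM simvastatin together with 2 mM mevalonate, to 5 µM simvastatin alone, or to DMSO, the solvent. Each of these 3 groups had 3 arrays, 1 for each RNA sample. All 9 samples came from this line in the same serum-containing medium. The submitters call the samples of a group independent without saying whether they were separate cultures, so p-values measure only the spread between these samples, which may be technical. Simvastatin blocks the enzyme that makes mevalonate, and added mevalonate bypasses that block. The groups show which levels differ when mevalonate is added to simvastatin. No group had mevalonate without simvastatin, so bypass of the block and an effect of mevalonate by itself cannot be told apart.

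A G protein consists of an alpha subunit that binds guanine nucleotides and a beta-gamma pair. An activated receptor loads the alpha subunit with GTP, and RGS proteins (regulators of G-protein signalling) end the signal by speeding GTP hydrolysis. Receptor kinases phosphorylate activated receptors and prepare them for arrestin binding, and adenylyl cyclases, stimulated by Gs and in part inhibited by Gi, make cyclic AMP. Gamma subunits carry a farnesyl or geranylgeranyl lipid made from mevalonate, which holds the beta-gamma pair at membranes. Sympathetic neuroblasts carry receptors of this kind for noradrenaline, neuropeptide Y and the peptides PACAP and VIP.

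The deposited values are log2 expression values, 1 per probeset and array, with array medians between 5.17 and 5.21. Arrays of a group correlated with each other at r from 0.994 to 0.996 over the 14884 genes. The label neuroblastoma was checked on marker genes. The 11 measured noradrenergic markers lay between 8.01 and 10.84, among them the transcription factors PHOX2A, HAND2 and GATA3 and the noradrenaline enzymes TH and DBH. The 4 measured Schwann or glial markers lay between 4.59 and 5.96 and the 2 endothelial markers between 4.21 and 5.18. The 4 mesenchymal markers ranged from 4.30 to 8.49. The 5 blood markers on the list were not measured. In simvastatin against DMSO, 8 noradrenergic and 1 mesenchymal marker (FN1) were lower, where 7.38% of all genes were. In the same comparison 0 markers were higher, where 5.98% of all genes were. With mevalonate against simvastatin, 7 noradrenergic markers and FN1 were higher, where 5.31% of all genes were, and 0 markers were lower. The part of these changes in the results on G-protein genes was not tested. In bulk RNA, fewer cells of a type and less RNA per cell cannot be told apart.

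Promoters are shown for the members whose values the results turn on. The set holds the members past the test in both simvastatin against DMSO and simvastatin plus mevalonate against simvastatin, apart from RGS5, whose changes were the smallest. Each line gives the 250 bases before a RefSeq transcription start in GRCh38.p14, 5′ to 3′ on the gene's strand. Capitals mark 4 motifs searched on both strands. They are CCAAT, a box of many promoters, TTTGAA, found in promoters of cell-cycle genes, TGACGTCA, the element of cyclic AMP-responsive promoters, and GGGCGG, the box bound by Sp1.
RGS13, chr1:192635897-192636146, plus strand: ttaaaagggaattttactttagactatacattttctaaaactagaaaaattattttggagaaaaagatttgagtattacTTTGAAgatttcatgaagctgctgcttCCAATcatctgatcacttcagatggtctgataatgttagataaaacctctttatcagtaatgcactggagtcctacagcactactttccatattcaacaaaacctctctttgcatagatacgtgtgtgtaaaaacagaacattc
GPSM2, chr1:108876735-108876984, plus strand: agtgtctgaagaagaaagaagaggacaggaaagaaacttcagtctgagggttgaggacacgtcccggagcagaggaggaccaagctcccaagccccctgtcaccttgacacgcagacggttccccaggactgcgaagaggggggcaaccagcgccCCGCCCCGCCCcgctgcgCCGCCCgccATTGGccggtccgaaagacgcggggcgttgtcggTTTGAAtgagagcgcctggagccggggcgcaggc
GRK5, chr10:119207321-119207570, plus strand: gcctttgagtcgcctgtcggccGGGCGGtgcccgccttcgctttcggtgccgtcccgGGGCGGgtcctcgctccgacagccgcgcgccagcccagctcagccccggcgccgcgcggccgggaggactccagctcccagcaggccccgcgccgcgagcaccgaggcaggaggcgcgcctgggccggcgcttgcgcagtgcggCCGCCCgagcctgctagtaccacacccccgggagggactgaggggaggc
RGS10, first start, chr10:119542720-119542969, minus strand: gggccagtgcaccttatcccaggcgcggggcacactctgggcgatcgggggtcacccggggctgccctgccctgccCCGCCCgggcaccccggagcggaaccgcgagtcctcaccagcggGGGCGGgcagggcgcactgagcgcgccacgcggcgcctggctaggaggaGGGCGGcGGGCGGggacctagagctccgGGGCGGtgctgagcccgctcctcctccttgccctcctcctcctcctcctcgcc
RGS10, second start, chr10:119536587-119536836, minus strand: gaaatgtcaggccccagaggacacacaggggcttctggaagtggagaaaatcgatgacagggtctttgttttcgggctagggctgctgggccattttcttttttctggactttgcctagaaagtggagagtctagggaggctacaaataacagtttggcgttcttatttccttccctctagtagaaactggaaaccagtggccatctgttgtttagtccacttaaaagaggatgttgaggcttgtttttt
GNAO1-DT, chr16:56191095-56191344, minus strand: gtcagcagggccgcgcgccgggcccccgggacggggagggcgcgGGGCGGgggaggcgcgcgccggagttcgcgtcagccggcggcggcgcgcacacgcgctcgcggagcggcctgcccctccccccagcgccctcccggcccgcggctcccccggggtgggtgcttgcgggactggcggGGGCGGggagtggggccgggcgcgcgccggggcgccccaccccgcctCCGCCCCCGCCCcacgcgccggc

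The RGS13 window had 32.0% G and C and held 1 CCAAT and 1 TTTGAA. The GPSM2 window, with 65.2% G and C, held 1 of each as well, beside 3 GGGCGG, of which those 95 and 90 bases before the start overlap. Over all 35116 windows of this length, the median was 58.0% G and C, CCAAT was present in 32% and TTTGAA in 13.3%, and both were present in 4.69%. The windows of GRK5, GNAO1-DT and the first RGS10 start had 78.4%, 87.6% and 77.2% G and C, and held GGGCGG at 3, 4 and 5 positions. Of all windows 42.6% held at least 1. That share covers windows of any G and C content, so it is not a like background for these positions. TGACGTCA, which 1.65% of all windows hold, was in 0 of these 6, and the second RGS10 start had none of the 4 motifs. GNAO1-DT is transcribed away from GNAO1, which encodes the alpha subunit Go, and 394 bases lie between the starts.

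To determine what simvastatin changed among G-protein genes, simvastatin arrays were compared with DMSO arrays. RGS13, RGS8, RGS5, RGS4, the receptor kinase GRK5, GPSM2 and the non-coding GNAO1-DT fell, and RGS10 and the adenylyl cyclase ADCY3 rose. In total 9 of 48 members (18.8%) changed (limma, Benjamini-Hochberg adjusted p under 0.05 over 14884 genes), against 13.4% of all genes. Upward, 2 members changed, against 5.98% of all genes, and downward 7, against 7.38%. Groups did not overlap in 12 members (25.0%), against 28.6% of all genes. The median log2 change of the 48 members was 0.03, against 0.01 over all genes, and the median size of a change was 0.10 in both.

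**Figure D1:**
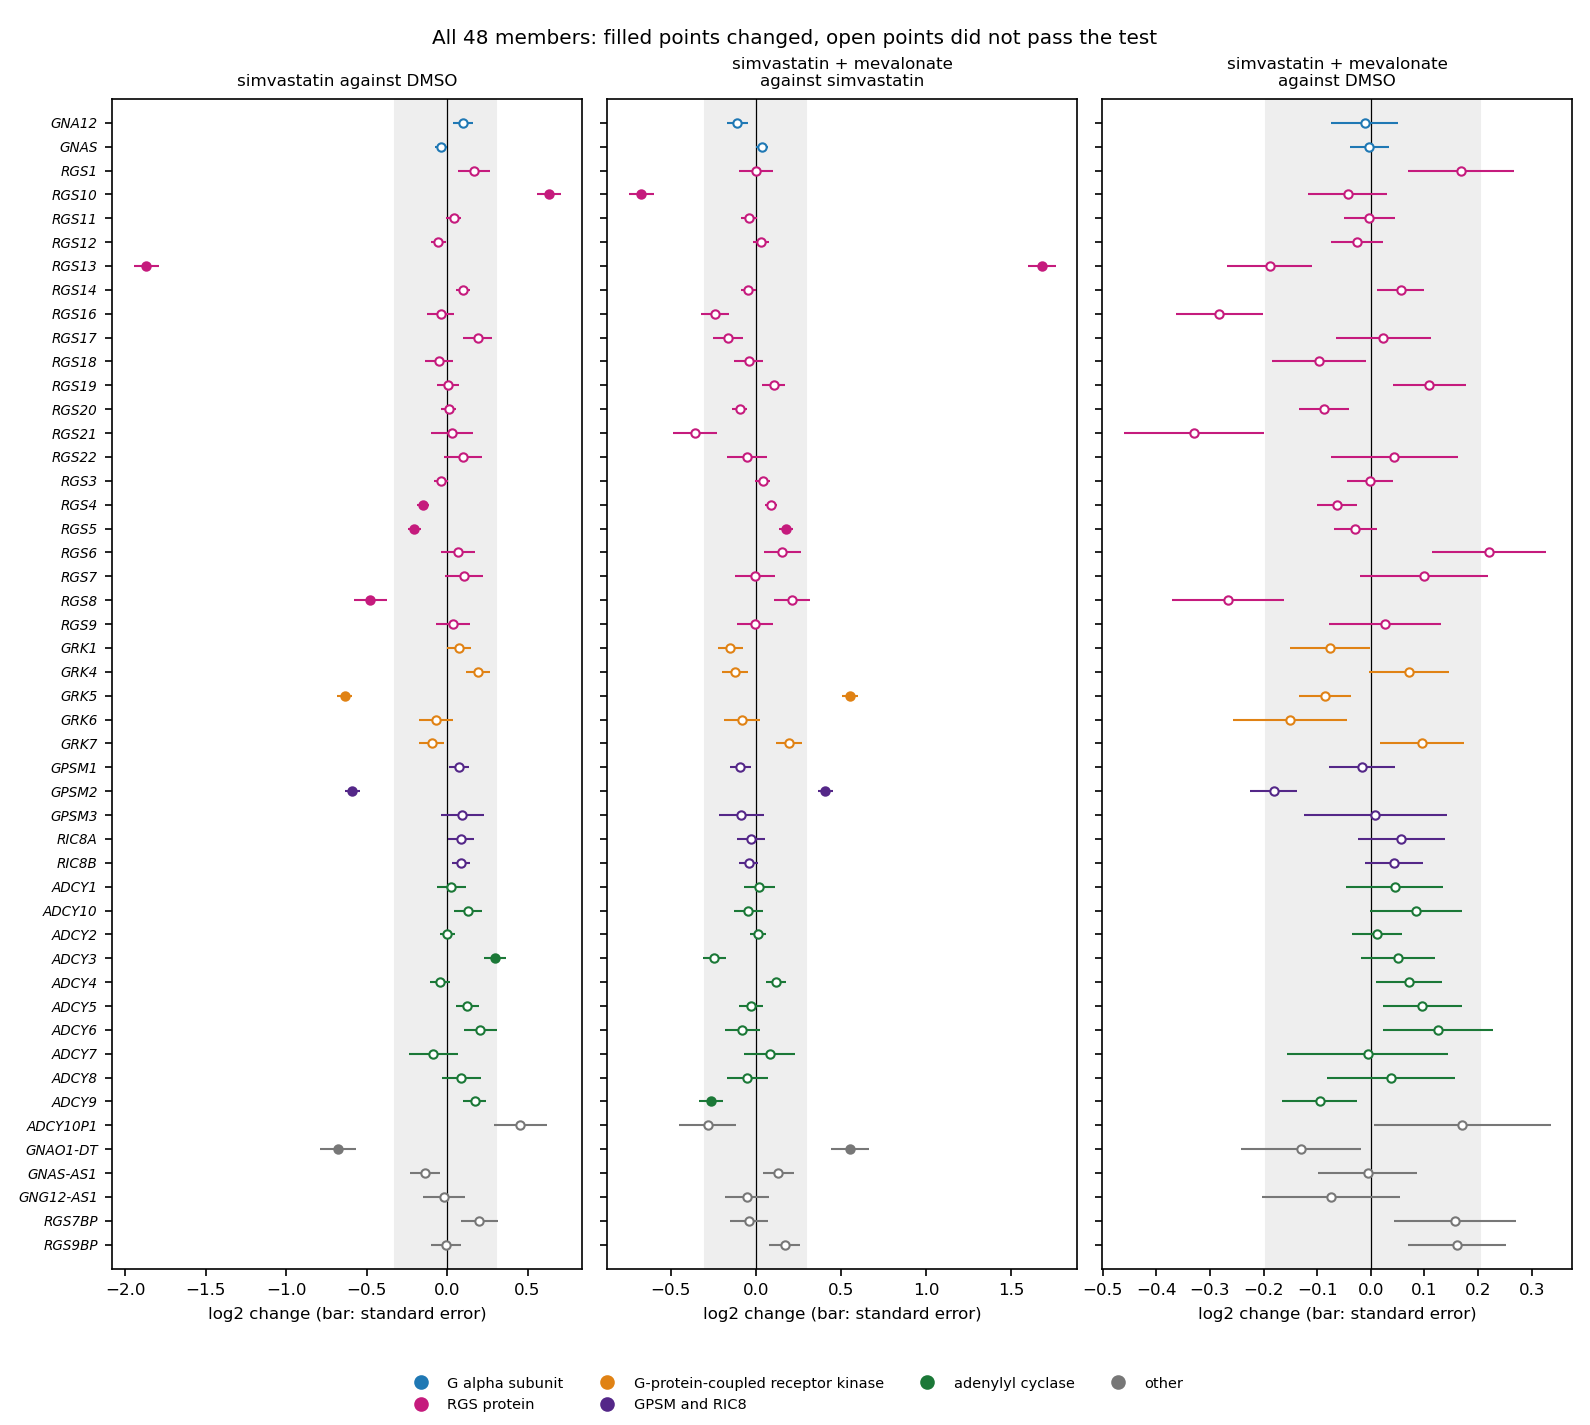
Log2 change (x axis, bar: standard error) of each of the 48 members (y axis) in the 3 comparisons, coloured by class, with filled points for members that passed the test and a grey band from the 5th to the 95th percentile of all 14884 genes. The panels have different x scales. RGS13 lies farthest from 0 in the first 2 panels, at -1.87 and 1.68, and in the third panel 0 members are filled.

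RGS13 is a small RGS protein best known from B lymphocytes and mast cells, where it acts on Gi and Gq. Its log2 values were 6.02, 6.09 and 6.09 with simvastatin plus mevalonate, 4.41, 4.45 and 4.31 with simvastatin, and 6.09, 6.28 and 6.41 with DMSO. The simvastatin arrays lay below all others, with no overlap. With simvastatin RGS13 was lower than with DMSO by a log2 change of -1.87 ± 0.08 (SE), a size of 3.65-fold (adjusted p = 9.05e-06), which is the second lowest change of the 14884 genes. The simvastatin values lie below 5.19, the median of all probesets, and the other 6 above it.

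RGS8, a brain RGS protein abundant in cerebellar Purkinje cells, had values of 5.08, 5.01 and 5.10 with simvastatin plus mevalonate, 4.79, 4.68 and 5.09 with simvastatin, and 5.29, 5.24 and 5.46 with DMSO. The simvastatin and DMSO arrays did not overlap, but the highest simvastatin array reached into the group with mevalonate. Simvastatin lowered RGS8 by 0.48 ± 0.10 on the log2 scale (log2 change -0.48, adjusted p = 0.0183). Without DMSO replicate 3 (adjusted p = 0.0652), simvastatin replicate 1 (0.0596) or simvastatin replicate 2 (0.0519) this call was lost, as in a fit of the 6 arrays compared (0.0638).

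RGS5 and RGS4 moved least among the members that fell. RGS5, known from pericytes and vascular muscle, had values of 8.991, 8.989 and 8.957 with simvastatin plus mevalonate, 8.853, 8.800 and 8.755 with simvastatin, and 9.004, 9.004 and 9.015 with DMSO. Its log2 change with simvastatin was -0.20 ± 0.04 (adjusted p = 0.0107). RGS4, a neuronal RGS protein acting on Gi and Gq, had values of 9.56, 9.56 and 9.58 with simvastatin plus mevalonate, 9.45, 9.51 and 9.47 with simvastatin, and 9.61, 9.63 and 9.65 with DMSO. The 3 groups of RGS4 did not overlap, although they spanned only 1.11-fold between simvastatin and DMSO (log2 change -0.15 ± 0.04, adjusted p = 0.0311). The RGS4 call was lost with quantile normalization (0.0505), in a fit of the 6 arrays compared (0.0719) and when DMSO replicate 1 (0.0612), 2 (0.0852) or 3 (0.0972), simvastatin replicate 1 (0.0794) or 3 (0.0749), or replicate 1 with mevalonate (0.0531) was left out.

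RGS10, an RGS protein of brain and immune cells that acts on Gi, was the RGS member that rose. It had values of 6.10, 5.88 and 5.89 with simvastatin plus mevalonate, 6.64, 6.65 and 6.61 with simvastatin, and 5.96, 6.12 and 5.93 with DMSO. The simvastatin arrays stood above all others. The log2 change was 0.63 ± 0.07 (1.55-fold, adjusted p = 0.000794), the 107th highest of 14884 genes.

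GRK5 is a receptor kinase that phosphorylates many activated receptors, adrenergic ones among them. Its values were 8.19, 8.16 and 8.09 with simvastatin plus mevalonate, 7.63, 7.53 and 7.62 with simvastatin, and 8.18, 8.27 and 8.25 with DMSO. Again the simvastatin arrays stood apart, below the other 6. The log2 change was -0.64 ± 0.05, a 1.56-fold lower level (adjusted p = 8.86e-05). The other 4 receptor kinases did not pass the test, with log2 changes from -0.10 to 0.19. Among them GRK6, a kinase of lymphocytes and other cells, had values from 8.09 to 8.42 with simvastatin plus mevalonate, from 8.15 to 8.42 with simvastatin and from 8.25 to 8.46 with DMSO, so its 3 groups overlapped.

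GPSM2 (also called LGN) binds inactive Gi alpha subunits and links them to the mitotic spindle, which it orients. It had values of 9.13, 9.13 and 9.11 with simvastatin plus mevalonate, 8.75, 8.69 and 8.71 with simvastatin, and 9.37, 9.24 and 9.30 with DMSO. The groups formed 3 steps without overlap, lowest with simvastatin. The log2 change with simvastatin was -0.59 ± 0.04 (1.50-fold lower, adjusted p = 8.72e-05). The other 4 genes of this class, GPSM1 and GPSM3, which like GPSM2 bind inactive Gi alpha subunits, and RIC8A and RIC8B, which help alpha subunits to fold, had log2 changes from 0.07 to 0.09 and did not pass the test.

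Among the 10 adenylyl cyclases ADCY3, the cyclase of olfactory neurons and primary cilia, rose. Its values were 7.51, 7.51 and 7.36 with simvastatin plus mevalonate, 7.76, 7.64 and 7.71 with simvastatin, and 7.44, 7.29 and 7.50 with DMSO. The simvastatin arrays were the highest 3, with a log2 change of 0.30 ± 0.07 (1.23-fold, adjusted p = 0.0240). This call was lost in a fit of the 6 arrays compared (0.0502). Leaving out DMSO replicate 1 (0.0535), DMSO replicate 2 (0.0675), simvastatin replicate 1 (0.0730) or simvastatin replicate 3 (0.0664) also ended it. The other 9 cyclases had log2 changes from -0.09 to 0.21. With ADCY3 included 8 of 10 were positive, as were 7679 of all 14884 genes, and nothing is read from this count. The highest of the 9, 0.21, was that of ADCY6, whose dimmer probeset changed by only 0.02 ± 0.08. The other 9 included ADCY1 and ADCY8, stimulated by calcium, and ADCY5 and ADCY6, inhibited by Gi and calcium. Also among them were ADCY2, ADCY4 and ADCY7, responsive to beta-gamma pairs, and the soluble ADCY10, stimulated by bicarbonate.

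Neither of the measured alpha subunits passed the test. GNAS, which encodes the stimulatory alpha subunit Gs, had values of 7.49, 7.52 and 7.49 with simvastatin plus mevalonate, 7.45, 7.49 and 7.46 with simvastatin, and 7.50, 7.49 and 7.52 with DMSO. Its log2 change with simvastatin was -0.04 ± 0.04, with a 95% interval from -0.12 to 0.04 (adjusted p = 0.570). GNA12, which encodes the alpha subunit G12, had a log2 change of 0.10 ± 0.06, with an interval from -0.04 to 0.24 (adjusted p = 0.375), and simvastatin replicate 1 at 7.92 was its highest array.

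Of the 6 other members GNAO1-DT fell, with values of 6.44, 6.49 and 6.58 with simvastatin plus mevalonate, 5.80, 6.05 and 6.01 with simvastatin, and 6.43, 6.60 and 6.87 with DMSO. The simvastatin arrays were the lowest 3. The log2 change was -0.68 ± 0.11 (adjusted p = 0.00478). GNAO1-DT has a second, dimmer probeset that changed by only -0.13 ± 0.12 (adjusted p = 0.631 over all probesets), so its probesets disagree. The remaining 5 did not pass the test, with log2 changes from -0.14 to 0.46, the highest being that of the pseudogene ADCY10P1 (0.46 ± 0.17, adjusted p = 0.121).

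**Figure D2:**
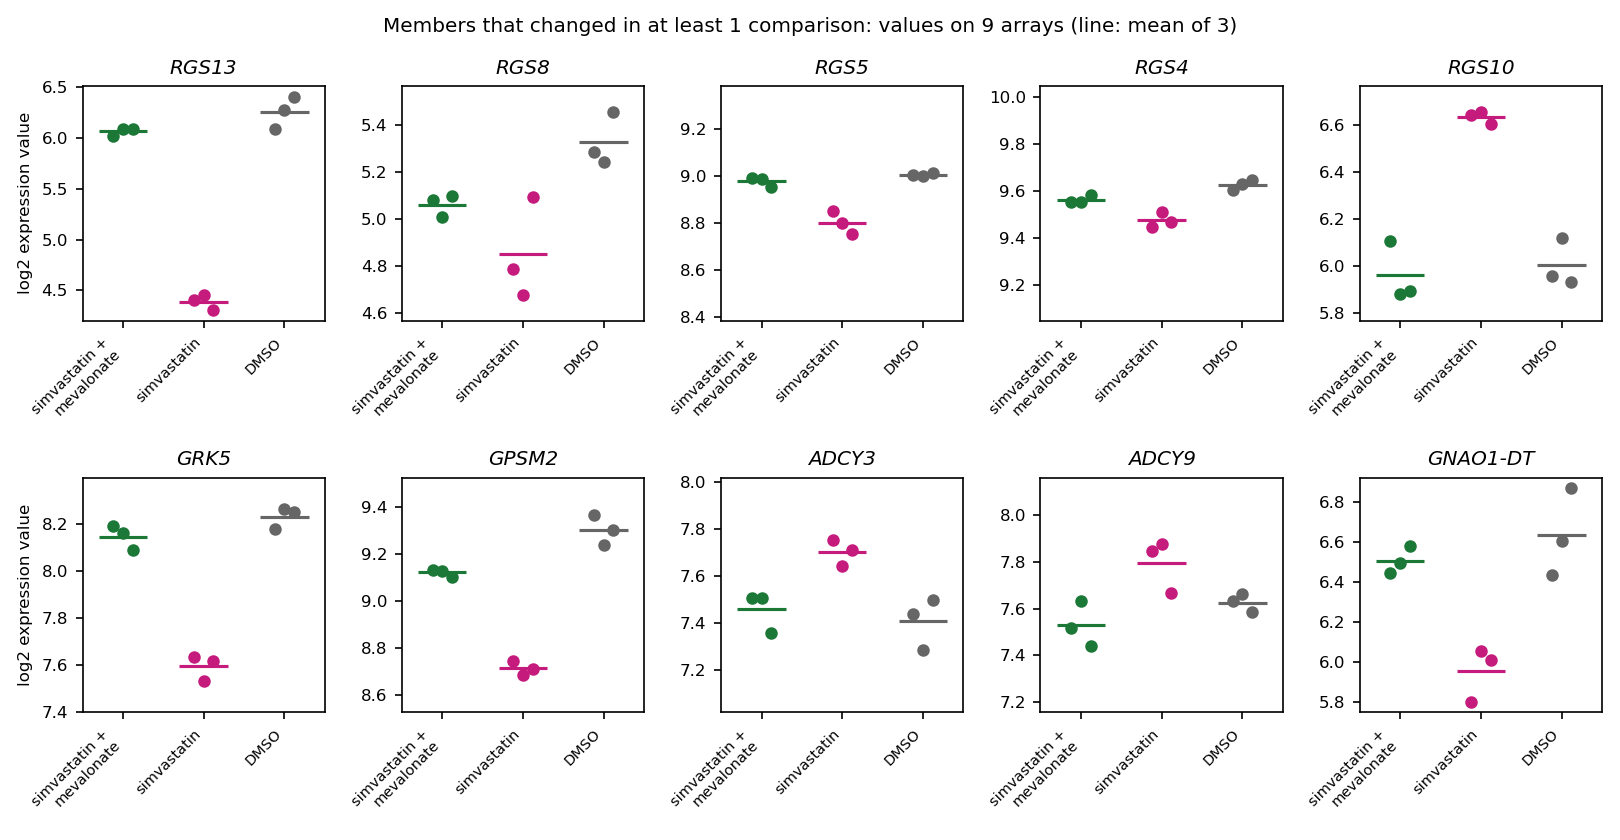
Log2 expression value (y axis, a scale of its own in each panel) of the 10 members that changed in at least 1 comparison, by group (x axis), with 1 point per array and a line at the mean of 3 arrays. In RGS13, RGS5, RGS4, GRK5, GPSM2 and GNAO1-DT the simvastatin arrays lie below the other 6, and in RGS10, ADCY3 and ADCY9 above them.

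The 20 RGS genes were then set out by subfamily, a grouping known from their sequences that was added after their values had been seen. All 4 RGS genes that fell belong to the R4 subfamily, mostly small proteins with little beyond the RGS domain, of which 9 were measured. Over all genes 7.38% fell, and since the grouping was made after the calls were known, nothing is read from this count. The other 5 were RGS1, RGS3, RGS16, RGS18 and RGS21, and the median log2 change of the 9 was -0.05. The 4 genes of the R7 subfamily, neuronal proteins that pair with the beta subunit GNB5 (RGS6, RGS7, RGS9 and RGS11), had log2 changes from 0.03 to 0.11, and 0 of them changed (0 at an unadjusted p under 0.05), where 13.4% of all genes did. Of the 3 RZ genes, RGS17, RGS19 and RGS20, 0 changed as well (0 at an unadjusted p under 0.05), with RGS17 at 0.19 ± 0.09. RGS10 belongs with RGS12 and RGS14 to the R12 subfamily, and RGS22 stands by itself. Over all 15 RGS genes that did not pass the test, log2 changes ran from -0.06 to 0.19.

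Position was a second feature the rule did not use. Of the 20 RGS genes 9 lie on chromosome 1 in RefSeq (GRCh38.p14), 8 of them of the R4 subfamily, and these include all 4 that fell, where 7.38% of all genes fell. This position was looked at after the calls were known. RGS18, RGS21, RGS1 and RGS13 are consecutive protein-coding genes there, followed directly by RGS2, which was not measured. Of the measured genes of this run only RGS13 changed, while RGS1 had a log2 change of 0.17 ± 0.10, RGS18 of -0.05 ± 0.09 and RGS21 of 0.03 ± 0.13. With a median of 5.19 over all probesets, RGS1 (2.27 to 2.76 over all 9 arrays), RGS18 (2.13 to 2.42) and RGS21 (3.96 to 4.68) were under that median on every array, where a change may not be detectable. RGS4 and RGS5 are neighbours and both fell. RGS16 and RGS8 are neighbours, and RGS16 had a log2 change of -0.04 ± 0.08 (adjusted p = 0.804). GRK5 and RGS10, on chromosome 10, are also neighbouring protein-coding genes, and they moved in opposite directions.

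**Figure D3:**
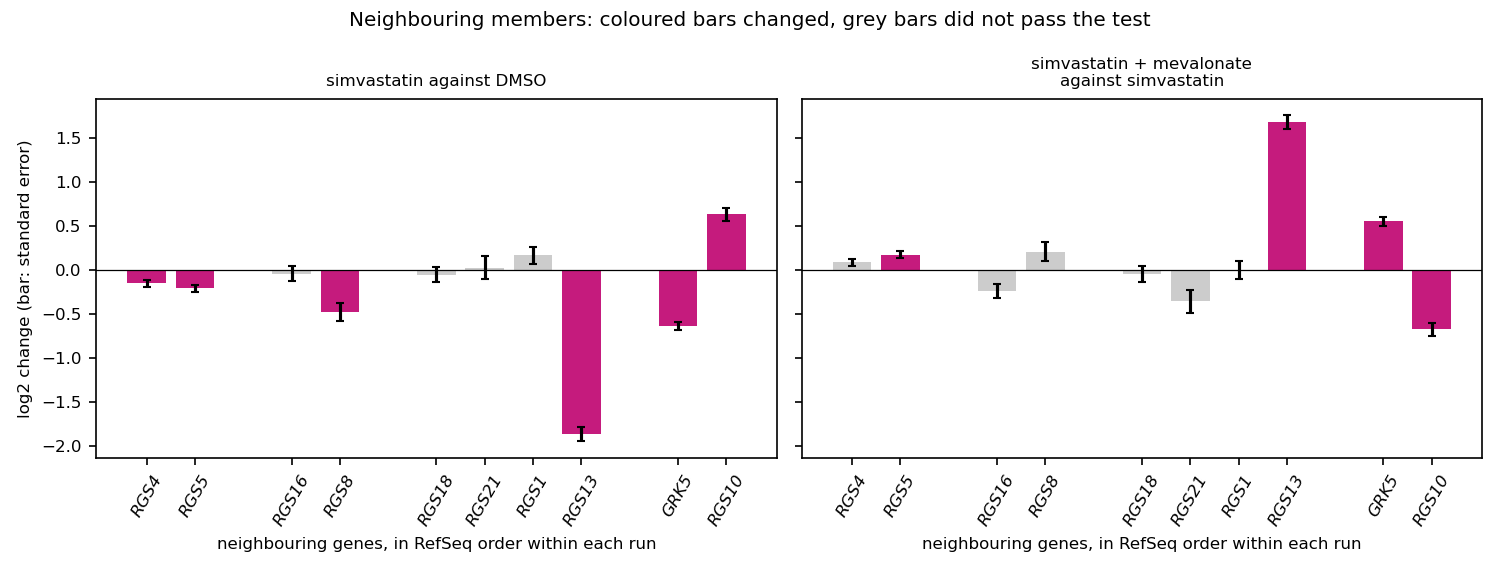
Log2 change (y axis, bar: standard error) of neighbouring members (x axis, in the order of the RefSeq annotation within each run) with simvastatin against DMSO on the left and with simvastatin plus mevalonate against simvastatin on the right. Coloured bars passed the test: RGS13 stands out among the 4 measured genes of its run, and the neighbours GRK5 and RGS10 have opposite signs in both panels.

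To determine which of these levels differed when mevalonate was added, the group with added mevalonate was set against simvastatin alone. RGS13, GRK5, GNAO1-DT, GPSM2 and RGS5 rose with mevalonate, and RGS10 and ADCY9 fell. In total 7 of 48 members (14.6%) changed, against 11.0% of all genes. Without replicate 3 of simvastatin plus mevalonate 4 members did. Upward these were 5 members, against 5.31% of all genes, and downward 2, against 5.72%. Groups did not overlap in 12 members (25.0%), against 27.3% of all genes. The median log2 change of the members was -0.04, against 0.00 over all genes. Both comparisons use the same simvastatin arrays, so each has its own values given here and no relation between them was computed.

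RGS13 had a log2 change of 1.68 ± 0.08 with mevalonate, 3.21-fold (adjusted p = 1.43e-05), the highest of the 14884 genes. GRK5 changed by 0.55 ± 0.05 (1.47-fold, adjusted p = 0.000232) and GPSM2 by 0.41 ± 0.04 (1.33-fold, adjusted p = 0.000690). RGS10 changed by -0.68 ± 0.07, 1.60-fold lower with mevalonate (adjusted p = 0.000690). These 4 calls held without any single array. RGS5 changed by 0.18 ± 0.04 (adjusted p = 0.0242), a call that ended in a fit of the 6 arrays compared (0.0692). It was also lost when simvastatin replicate 2 (0.0634) or replicate 3 (0.0665), or any array with mevalonate (0.0807, 0.0719 and 0.0553 for replicates 1, 2 and 3), was left out. GNAO1-DT changed by 0.55 ± 0.11 (adjusted p = 0.0152), lost without simvastatin plus mevalonate replicate 3 (0.0606) or with the mean over its probesets (0.0829).

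ADCY9, a broadly expressed cyclase, had values of 7.52, 7.63 and 7.44 with simvastatin plus mevalonate, 7.85, 7.87 and 7.67 with simvastatin, and 7.63, 7.66 and 7.58 with DMSO. Its lowest simvastatin array stood just above the highest DMSO array. It was lower with mevalonate by a log2 change of -0.27 ± 0.07 (adjusted p = 0.0441), and against DMSO simvastatin gave 0.17 ± 0.07 (adjusted p = 0.166). The mevalonate call ended in a fit of the 6 arrays compared (0.103) and when any 1 array was left out (adjusted p up to 0.140), with the exceptions of simvastatin replicate 3 and the second array with mevalonate. ADCY3, RGS8 and RGS4 did not pass the test with mevalonate, at -0.24 ± 0.07 (adjusted p = 0.0578), 0.21 ± 0.10 (0.268) and 0.09 ± 0.04 (0.200). For ADCY3 and RGS4 a spread modelled with a trend gave a call (0.0242 and 0.0455). ADCY3 was also called with quantile normalization (0.0362), with arrays shifted to a common median (0.0463), among genes above the median of all probesets (0.0296) and without DMSO replicate 2 (0.0397), and RGS8 without simvastatin replicate 3 (0.0362). RGS21, a small RGS protein of taste cells, had values of 4.13, 4.10 and 3.96 with simvastatin plus mevalonate, 4.24, 4.68 and 4.35 with simvastatin, and 4.24, 4.33 and 4.61 with DMSO. It lay lowest with mevalonate, with a log2 change of -0.36 ± 0.13 against simvastatin that did not pass the test (adjusted p = 0.137). GNAS and GNA12 had log2 changes of 0.04 ± 0.04 and -0.11 ± 0.06 (adjusted p = 0.620 and 0.330).

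Simvastatin plus mevalonate was last compared with DMSO. Of the 48 members 0 changed (limma; 5 at an unadjusted p under 0.05), where 0.0739% of all genes did. GPSM2 came nearest, at -0.18 ± 0.04 with a 95% interval from -0.28 to -0.08 (adjusted p = 0.191), and with a trend in the model of the spread it was called lower (0.0325), the 1 member so called. All 3 of its arrays with mevalonate lay below all 3 DMSO arrays. RGS13 differed by -0.19 ± 0.08, with an interval from -0.37 to -0.01 (adjusted p = 0.435), GRK5 by -0.08 ± 0.05, from -0.20 to 0.03 (0.573), and RGS10 by -0.04 ± 0.07, from -0.21 to 0.12 (0.865). RGS8 (-0.27, from -0.51 to -0.03, adjusted p = 0.405), the dim RGS21 (-0.33, from -0.63 to -0.03) and RGS16 (-0.28, from -0.47 to -0.10, adjusted p = 0.272), an RGS protein of liver, retina and immune cells, also had intervals that leave out 0 without passing the test across genes.

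Genes around the members were taken from 8 lists of receptors, effectors and processing enzymes, chosen with earlier results of these data known. The lists had 115 entries, of which 56 were measured. Among these, 14 changed with simvastatin against DMSO, where 13.4% of all genes did, and 11 with simvastatin plus mevalonate against simvastatin, where 11.0% did. Of 29 measured receptors for catecholamines, neuropeptides and lysophospholipids, 5 fell and 1 rose with simvastatin, where 7.38% of all genes fell and 5.98% rose. With mevalonate 5 rose and 1 fell, where 5.31% of all genes rose and 5.72% fell.

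NPY2R, a Gi-coupled receptor of neuropeptide Y, had values of 8.15, 8.06 and 8.16 with simvastatin plus mevalonate, 7.12, 7.24 and 6.89 with simvastatin, and 8.14, 8.02 and 8.13 with DMSO. The simvastatin arrays lay below the other 6, at -1.01 ± 0.09 against DMSO (adjusted p = 0.000146). S1PR2, a sphingosine 1-phosphate receptor that couples to G12/13, Gi and Gq, had 7.15, 7.04 and 6.91 with simvastatin plus mevalonate, 7.72, 7.68 and 7.76 with simvastatin, and 7.11, 7.08 and 7.05 with DMSO. It was highest with simvastatin, at 0.64 ± 0.06 against DMSO (adjusted p = 0.000267). ADRA2A, the Gi-coupled alpha-2A adrenergic receptor, changed by -0.39 ± 0.09 with simvastatin (adjusted p = 0.0188), a call lost in a fit of the 6 arrays compared (0.0656) and when DMSO replicate 1 (0.0651), simvastatin replicate 1 (0.0536) or simvastatin replicate 3 (0.0631) was left out, and by 0.60 ± 0.09 with mevalonate (adjusted p = 0.00274). The other receptors that fell with simvastatin were those of PACAP and VIP (ADCYAP1R1 and VIPR2) and the lysophosphatidic acid receptor LPAR1. LPAR1 has 2 probesets, of which only the brighter was used here.

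Further down the pathway, 3 of 5 measured cyclic AMP effectors, of 15 on the list, changed with simvastatin, where 13.4% of all genes did. The transcription factor gene CREB1 was lower (-0.27 ± 0.04, adjusted p = 0.00484), while its relative CREM (0.27 ± 0.06, adjusted p = 0.0229) and AKAP12, an anchor of protein kinase A (0.28 ± 0.05, adjusted p = 0.00444), were higher. The CREM call ended when DMSO replicate 1 (0.0755), DMSO replicate 2 (0.0734), simvastatin replicate 1 (0.0640) or simvastatin replicate 2 (0.0702) was left out. Of 5 measured phosphodiesterases (16 on the list), which break down cyclic AMP, PDE8B rose (0.62 ± 0.08, adjusted p = 0.00157), where 5.98% of all genes rose. PDE8B changed by -0.58 ± 0.08 with mevalonate (adjusted p = 0.00278). Of the 4 measured effectors of Gq, G12/13 and beta-gamma (ARHGEF1, ARHGEF11, ARHGEF12 and ARHGEF25), of 17 on the list, 0 changed with simvastatin (limma, 0 at an unadjusted p under 0.05).

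Among 5 measured arrestin and phosducin genes, of 8 on the list, 2 changed with simvastatin, where 13.4% of all genes did. PDCL, a chaperone that helps to assemble beta-gamma pairs, fell (-0.28 ± 0.06, adjusted p = 0.0141), a call lost with all probesets in the fit (0.0502). PDCL2 rose (0.43 ± 0.10, adjusted p = 0.0189). The PDCL2 call was lost without DMSO replicate 1 (0.0668) or 3 (0.0609), in a fit of the 6 arrays compared (0.0670) and with all probesets in the fit (0.0529). PDCL2 values were under the median of all probesets on every array, so its change rests on dim signals. Of the 4 measured genes of prenylation and CAAX processing, of 12 on the list, FDPS, the farnesyl diphosphate synthase, rose (0.53 ± 0.08, adjusted p = 0.00390), where 5.98% of all genes rose. The others, CHML, ICMT and ZMPSTE24, did not pass the test. Of 4 further genes with an RGS domain, of 6 on the list, SNX13 fell (-0.17 ± 0.04, adjusted p = 0.0383), where 7.38% of all genes fell. The SNX13 call ended in a fit of the 6 arrays compared (0.0689) and when any 1 array was left out (adjusted p up to 0.118), with the exceptions of DMSO replicate 1 and the second array with mevalonate. AXIN1, AXIN2 and AKAP10 did not pass the test. The photoreceptor gamma subunits of the eighth list are not analysed here.

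**Figure D4:**
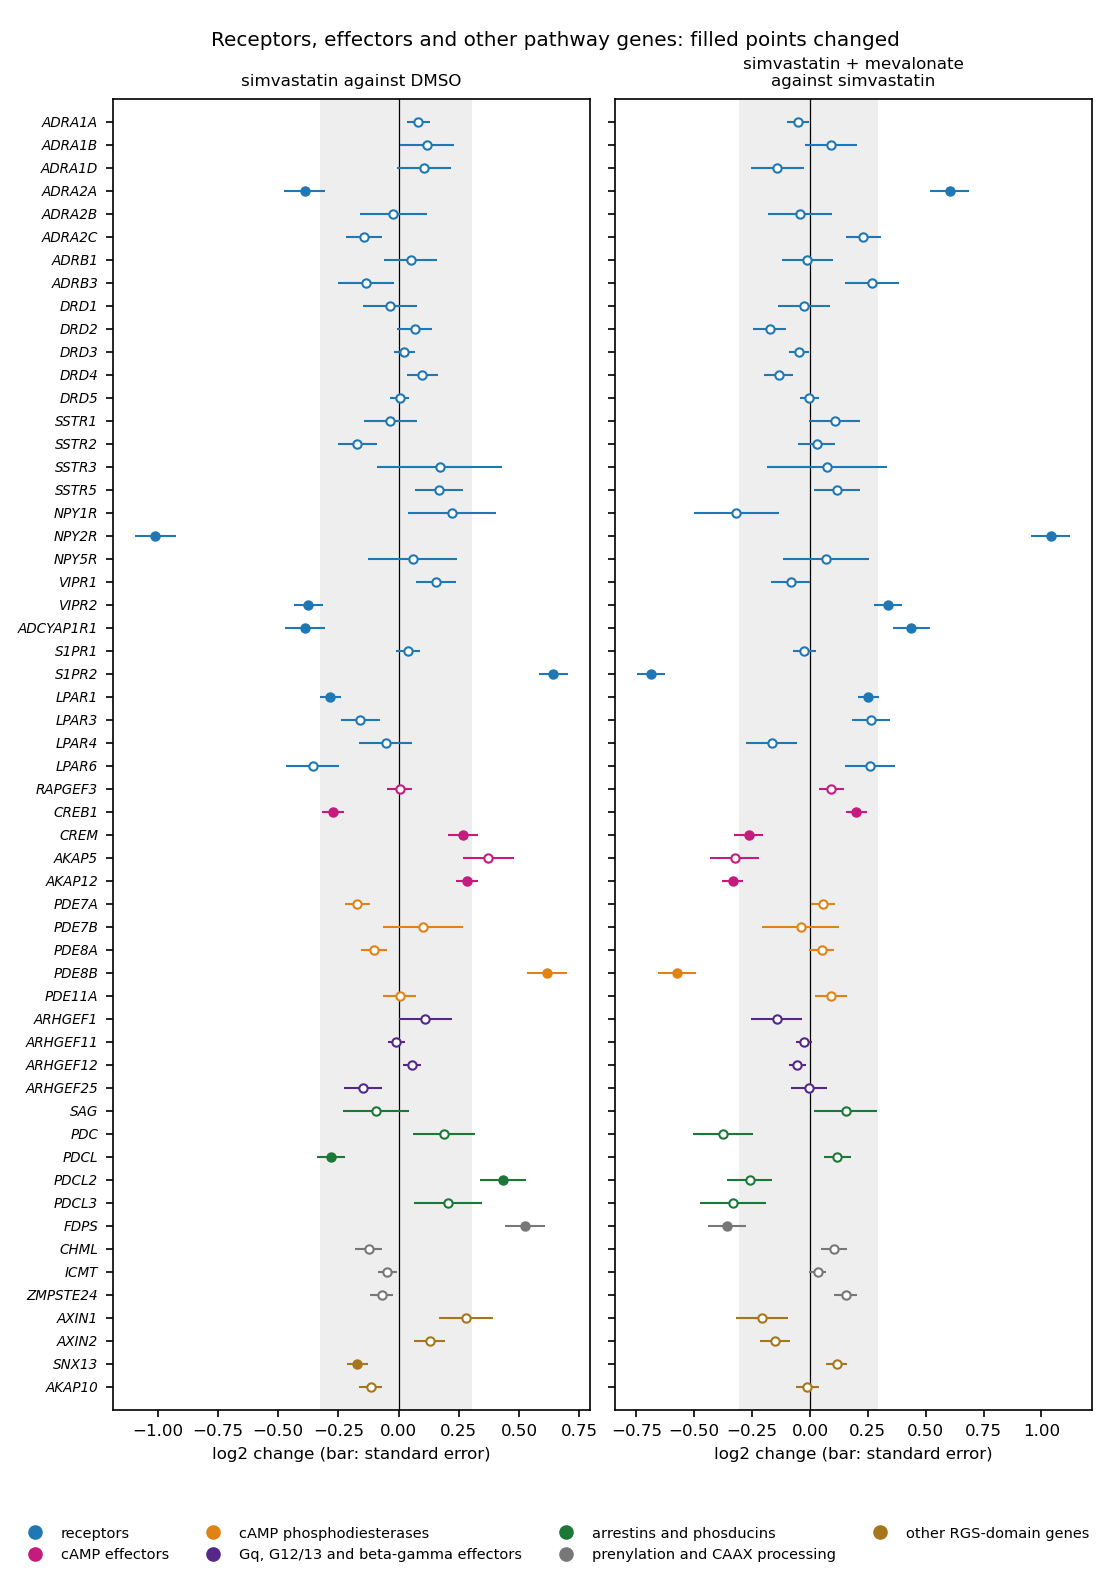
Log2 change (x axis, bar: standard error) of the 56 measured receptor, effector and processing genes (y axis), coloured by list, with filled points for genes that passed the test and a grey band from the 5th to the 95th percentile of all genes. NPY2R at -1.01 and S1PR2 at 0.64 are the receptors farthest from 0 with simvastatin against DMSO, on the left, and with simvastatin plus mevalonate against simvastatin, on the right, they are on the opposite sides.

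Precision differed between members. The within-group SD of the 48 ran from 0.0192 to 0.234 on the log2 scale, with a median of 0.106, against 0.0927 over all genes. Of the members 15 had a mean below the median of all probesets, 5.19, and RGS8 was the one of these that changed. In 30 members at least 2 of the 9 arrays had identical values, as had 57.4% of all genes, and in 6 of 48 members all 3 arrays of a group were identical, against 824 of 14884 genes. In the 9 members that changed with simvastatin against DMSO, identical values occurred in ADCY3 alone, between simvastatin plus mevalonate replicates 1 and 2.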

How the data were processed

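RNA of 9 samples was measured on 9 one-channel Affymetrix arrays. The authors deposited log2 values, 1 per probeset and array (53617 probesets). The scale was read from the values. Per the submitters' processing notes GCRMA and HOMER were used, with no version stated, and their roles, settings and the annotation's build are not given in the sources used here. Of the probesets, 16098 have 1 symbol in the platform annotation, 0 have several and 37519 have none. All 48 members matched RefSeq by Entrez ID, and 38 are in its promoter table. For each gene the probeset with the highest mean was kept, which left 14884 genes.

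All 9 arrays entered 1 fit of 3 group means in R 4.3.3 with limma 3.58.1 (lmFit, eBayes; 6 residual and 2.39 prior degrees of freedom), with Benjamini-Hochberg adjustment over 14884 genes for each comparison. "Rose", "fell" and "changed" mean an adjusted p under 0.05. Errors are limma's standard errors. The number of arrays limits the precision.

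The members and lists were chosen with earlier results of these data known. Members are named where they changed in a comparison, had the highest mean of their class or the largest change with simvastatin, and listed genes up to 3 per list. ADCY10P1, RGS1, RGS16, RGS17, RGS18, RGS21 and GNAS were added after their values were seen.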

Additional observations from a re-analysis of the deposited data

How the results depend on the processing

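For the named members 36 log2 changes were recomputed under the alternatives, which gave 681 values. Of these, 625 kept their side of the threshold, 48 lost the call and 8 gained one. A reversal was counted only where the change was called in the main fit or the alternative, and 0 were found. Changes without a call could switch sign and still count among the 625. GRK6 with simvastatin against DMSO did so, at -0.07 in the main fit and up to 0.005 when 1 array was left out. For simvastatin against DMSO, 9 members changed, and 5 with all 53617 probesets in the fit or at an adjusted p threshold of 0.01, both of which left out RGS8, RGS5, RGS4 and ADCY3. For simvastatin plus mevalonate against simvastatin 7 changed, and 4 at that threshold. Against DMSO, simvastatin plus mevalonate changed 0 members, and 1 with a trend in the spread. Leaving out 1 array gave 6 to 9, 4 to 7 and 0 to 0 members in these 3 comparisons, the 4 being without simvastatin plus mevalonate replicate 3. Over all genes the threshold of 0.01 left 1034 of 1988, 832 of 1642 and 0 of 11. The last of these counts was 225 with a trend, 105 among genes above the median of all probesets, 7 with all probesets, 0 with only the groups compared and 0 with the replicate block. Leaving out 1 array gave 1461 to 1744, 1121 to 1482 and 0 to 12 genes. Samples that share a replicate number did not visibly deviate together (r from -0.0806 to 0.0505). With so few arrays per group this cannot exclude that the numbers pair the samples. With the number as a block 8, 6 and 0 members changed, RGS4 against DMSO (adjusted p = 0.0744) and RGS5 with mevalonate (0.0624) losing their calls. Members with dim values, such as RGS1, RGS18, RGS21, RGS22, ADCY10 and RGS13 with simvastatin, are limited by the signal over background. The cause of the changes between settings was not tested.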
